A study of Mus musculus with 2 samples.

Results

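Endoplasmic reticulum (ER) chaperones fold and quality-check the proteins that a cell secretes or places in its membranes. Described here are 10 of their genes, Hspa5, Hsp90b1, Hyou1, Sdf2l1, Creld2, Dnajb9, Dnajb11, Pdia4, Pdia6 and Calr, of 39017 gene identifiers in the deposited count table. They were taken by symbol as targets of the transcription factors ATF6 and XBP1, and were chosen by someone who knew their ratios between these same libraries. Those ratios are therefore given as a description, with no test. All 10 had far more than the 20 summed counts required for a ratio, the fewest being 962 for Sdf2l1, so none was left out.

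Total RNA depleted of ribosomal RNA was sequenced from LSK cells (Lin- Sca-1+ c-Kit+), a sorted bone marrow fraction with the haematopoietic stem cells and multipotent progenitors. For the WT LSK library 12 wild-type mice were pooled, and for the miR-146a-/- LSK library 6 mice without the microRNA miR-146a. Both pools were C57BL/6J animals 10 to 14 weeks old, and the labels name no treatment and no sex. With 1 library per genotype there is no replicate check: every statement compares these libraries, and intervals cover counting error only. In RNA from a sorted population, fewer cells of a type and less RNA per cell cannot be told apart.

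When unfolded proteins accumulate in the ER, 3 sensors respond. ATF6 is cut to release a transcription factor, IRE1 (gene Ern1) splices the mRNA of XBP1, and PERK (gene Eif2ak3) phosphorylates a translation factor, which favours translation of ATF4, an activator of the CHOP gene Ddit3. ATF6 and XBP1 induce chaperone genes, many of them through the ER stress response element (ERSE) in the promoter. BiP, the product of Hspa5, also holds the sensors inactive.

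Promoter sequences are shown because the genes were grouped as targets of ATF6 and XBP1, which act at many such genes through the ERSE. RefSeq promoters (build GRCm38.p6, 250 bases before to 50 after the gene start) were matched by symbol for 9 of the 10 genes. The ERSE was searched on both strands as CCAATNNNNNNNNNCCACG and the related ERSE-II as ATTGGNCCACG. The ERSE stood in Hspa5, Hsp90b1, Creld2, Pdia6 and Calr, and ERSE-II in Dnajb11. Of 32851 promoters of that length, 39 (0.119%) held an ERSE and 12 (0.0365%) an ERSE-II. In the windows below, written along the gene's strand, capitals mark the match, and a match on the opposite strand begins with CGTGG.

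Hspa5, chr2:34772010-34772058, plus strand: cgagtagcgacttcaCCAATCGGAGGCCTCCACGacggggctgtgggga

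Hsp90b1, chr10:86705518-86705671, minus strand: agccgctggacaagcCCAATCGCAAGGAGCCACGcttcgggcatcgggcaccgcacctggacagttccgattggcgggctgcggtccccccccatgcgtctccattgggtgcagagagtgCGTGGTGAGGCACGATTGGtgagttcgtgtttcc

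Creld2, chr15:88819505-88819553, plus strand: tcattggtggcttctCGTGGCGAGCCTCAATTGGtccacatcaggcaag

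Pdia6, chr12:17266476-17266524, plus strand: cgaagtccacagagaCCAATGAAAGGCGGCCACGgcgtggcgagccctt

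Calr, chr8:84847060-84847108, minus strand: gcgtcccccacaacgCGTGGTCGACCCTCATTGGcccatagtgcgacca

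Dnajb11, chr16:22857837-22857877, plus strand: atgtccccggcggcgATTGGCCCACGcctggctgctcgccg

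The next windows are the whole promoters of the genes with the lowest and the highest ratio, Sdf2l1 and Dnajb9, neither of which held a full ERSE or ERSE-II. Capitals mark the half-site CCACG, on either strand, which 32.8% of all promoters hold.

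Sdf2l1, chr16:17132334-17132633, minus strand: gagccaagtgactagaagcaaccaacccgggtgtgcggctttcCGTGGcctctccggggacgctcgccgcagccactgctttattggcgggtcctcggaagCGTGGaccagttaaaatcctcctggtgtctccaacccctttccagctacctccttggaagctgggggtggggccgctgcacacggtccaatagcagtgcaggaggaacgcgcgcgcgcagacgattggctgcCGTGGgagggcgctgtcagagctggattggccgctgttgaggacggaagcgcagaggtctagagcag

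Dnajb9, chr12:44210019-44210318, minus strand: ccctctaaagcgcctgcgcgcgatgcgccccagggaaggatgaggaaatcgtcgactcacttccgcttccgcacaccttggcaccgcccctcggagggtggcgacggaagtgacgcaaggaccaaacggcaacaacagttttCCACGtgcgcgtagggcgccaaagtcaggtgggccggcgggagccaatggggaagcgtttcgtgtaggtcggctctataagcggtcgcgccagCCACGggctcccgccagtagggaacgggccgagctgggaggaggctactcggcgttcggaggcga

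The genes did not move as one group. After TMM scaling, which sets the libraries to a common level over most genes, Hspa5 and Dnajb9 were higher in the miR-146a-/- library, Calr was nearly level, and the other 7 had negative log2 ratios; by total counts Hspa5 and Dnajb9 were instead at log2 ratios of -0.06 and -0.04, and all 10 were negative. Levels are given as normalised CPM, the usual counts-per-unit-depth measure with the TMM-scaled library size as the depth. A gene is called here when its whole 95% interval lies beyond 1.5-fold. By that rule Sdf2l1, Creld2 and Hsp90b1 were called lower, 3 of 10, where 1.53% of 13880 measured genes and 1.44% of protein-coding ones were called lower. Hspa5 and Dnajb9 were called higher, where 5.35% of all measured genes and 4.37% of protein-coding ones were. The median log2 ratio of the 10 genes was -0.64, or 0.642-fold, beside -0.01 over all measured genes. With no filter on low counts, which shifts the scaling, Hyou1, Dnajb11 and Pdia6 were also called lower, making 6. In that setting 1.59% of 20304 genes were called lower.

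**Figure D1:**
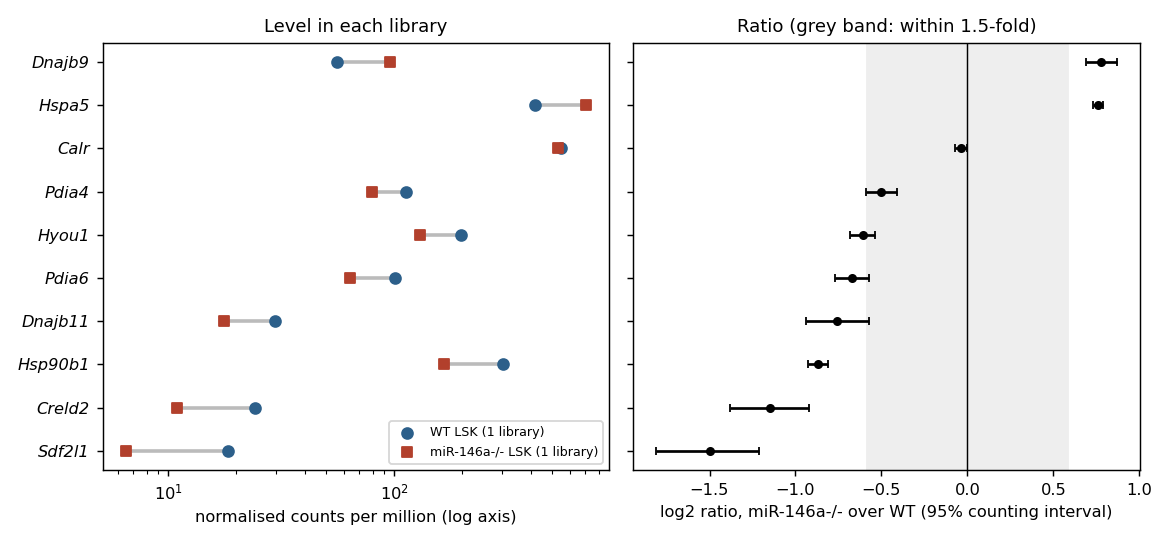
Left, normalised CPM of each gene in the WT LSK and miR-146a-/- LSK libraries (log axis); right, log2 ratio of miR-146a-/- over WT with its 95% counting interval, and the range within 1.5-fold in grey. Under TMM scaling Dnajb9 (0.78) and Hspa5 (0.76) lie right of the grey band, although by total counts both were slightly below 0, and Hsp90b1, Creld2 and Sdf2l1 lie left of it.

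Hspa5 (ENSMUSG00000026864, mm10 chromosome 2, 34771970 to 34777547, plus strand) encodes BiP, the HSP70 of the ER that binds unfolded chains. Its counts were 19421 (WT) and 11797 (miR-146a-/-), or 417 and 706 normalised CPM. The log2 ratio was 0.76 (95% interval 0.73 to 0.79), or 1.69-fold. Of protein-coding counts alone, Hspa5 took 0.0681% in WT (Clopper-Pearson interval 0.0671 to 0.0690%) and 0.103% in miR-146a-/- (0.101 to 0.105%). Of all counts it took 0.0554% and 0.0531%, so the higher level holds against other mRNAs and not against the whole library.

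Dnajb9 (ENSMUSG00000014905, chromosome 12, 44205559 to 44210326, minus strand) encodes ERdj4, a J-domain partner that recruits BiP to substrates and to IRE1. Its 2586 and 1594 counts corresponded to 55.5 and 95.4 normalised CPM. The log2 ratio of 0.78 (0.69 to 0.87), or 1.72-fold, overlapped that of Hspa5. Within WT there were 7.51 Hspa5 counts per Dnajb9 count and within miR-146a-/- 7.40, a change of 0.986-fold (Wald interval 0.922 to 1.05).

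The second J-domain gene had the opposite sign. Dnajb11 (ENSMUSG00000004460, chromosome 16, 22857845 to 22879634, plus strand) encodes ERdj3, which passes unfolded proteins to BiP. It was at 29.7 and 17.6 normalised CPM (1385 and 294 counts), a log2 ratio of -0.76 (-0.94 to -0.57). Its upper bound of -0.5745 lay just inside 1.5-fold, a log2 of 0.58, so it was not called.

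Sdf2l1 (ENSMUSG00000022769), whose product joins ERdj3 in a complex with BiP, was the lowest of the 10 genes. It is at chromosome 16, 17130138 to 17132383, on the minus strand, with 854 WT and 108 miR-146a-/- counts. These were 18.3 and 6.46 normalised CPM, a log2 ratio of -1.50 (-1.81 to -1.21), or 2.83-fold lower. Ranked from the lowest among protein-coding genes with at least 200 summed counts, it was number 9 of 10365.

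Hyou1 (ENSMUSG00000032115, chromosome 9, 44379490 to 44392369, plus strand) encodes GRP170, the nucleotide exchange factor that resets BiP. It had 9197 and 2158 counts, 197 and 129 normalised CPM. The log2 ratio was -0.61 (-0.68 to -0.54) and was not called, but it was called lower at -0.71 (-0.77 to -0.64) when length and GC were adjusted for, and at -0.68 with no filter. Thus of the chosen chaperone genes that act directly with BiP, Dnajb9 had the sign of Hspa5 under TMM scaling. Under the same scaling Dnajb11, Sdf2l1 and Hyou1 did not. Partners of BiP outside the chosen genes are not covered by that comparison.

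Hsp90b1 (ENSMUSG00000020048, chromosome 10, 86690209 to 86705509, minus strand) encodes GRP94, the HSP90 of the ER, needed to fold Toll-like receptors and integrins. Its 14102 and 2776 counts gave 303 and 166 normalised CPM. The log2 ratio was -0.87 (-0.93 to -0.81), or 1.82-fold lower. Annotated genes overlap it, of which 1810014B01Rik on the opposite strand had 231 and 88 counts and Gm15344 on the same strand 33 and 19, few beside its own. Overlaps of the other genes held at most 2 counts in a library (Atp6v1c2 with Pdia6, Mir704 with Pdia4), except that Gm30505, antisense to Dnajb11, was not analysed here. Whether counting used strand is not known.

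Both disulphide isomerase genes, whose products form and reshuffle disulphide bonds, had negative ratios that were not called. Pdia4 (ENSMUSG00000025823, chromosome 6, 47796141 to 47813430, minus strand) was at 112 and 79.3 normalised CPM (5229 and 1326 counts), with a log2 ratio of -0.50 (-0.59 to -0.41). Pdia6 (ENSMUSG00000020571, chromosome 12, 17266545 to 17284770, plus strand) was at 101 and 63.4 normalised CPM (4696 and 1060 counts), with a log2 ratio of -0.67 (-0.77 to -0.57). Their intervals overlapped each other.

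Creld2 (ENSMUSG00000023272), an ER stress-inducible gene for a cysteine-rich ER protein, was the second lowest. It is at chromosome 15, 88819646 to 88826683, on the plus strand, with 1125 and 182 counts, 24.2 and 10.9 normalised CPM. Its log2 ratio was -1.15 (-1.38 to -0.92), or 2.22-fold lower, and number 26 from the lowest among the 10365 protein-coding genes above.

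Calr (ENSMUSG00000003814, chromosome 8, 84841850 to 84846934, minus strand) encodes calreticulin, a lectin chaperone for glycoproteins that also stores calcium. It had 25350 and 8864 counts, 544 and 530 normalised CPM. The log2 ratio of -0.04 (-0.07 to -0.0021) lay near 0, at percentile 47.5 of all measured genes. Adjusting for length and GC of the transcript moved it to 0.03, so its sign is not fixed.

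Among the 10 genes, intervals did not overlap in 34 of the 45 pairs, and the ratios spanned 2.28 on the log2 scale. Counts this high give narrow intervals, and the same share was not computed over pairs of all measured genes. The 34 pairs are thus a description and not a trait particular to these genes. Intervals lay wholly below 0 for 8 genes and wholly above for 2, where 29.1% of all measured genes had an interval wholly below 0 and 28.0% wholly above. Under TMM scaling the summed level of the 10 genes was nevertheless alike, at 1802 (WT) and 1804 (miR-146a-/-) normalised CPM. Without that scaling it was lower in miR-146a-/-, at 0.239% (WT) and 0.136% of all counts. Of protein-coding counts the 10 genes took 0.294% (0.292 to 0.296%) and 0.263% (0.260 to 0.266%). Hspa5 made up 23.1% of their summed counts in WT and 39.1% in miR-146a-/-, while Calr made up 30.2% and 29.4% and Hsp90b1 16.8% and 9.21%.

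Ratios between genes within a library use no scaling. There were 1.38 Hspa5 counts per Hsp90b1 count in WT and 4.25 in miR-146a-/-, a 3.09-fold change (2.95 to 3.23). Per Sdf2l1 count there were 22.7 and 109 Hspa5 counts, a 4.80-fold change (3.93 to 5.88). Per Calr count there were 0.766 and 1.33, so the more abundant of this pair differed between the libraries (1.74-fold, 1.68 to 1.80). The split between Hspa5 with Dnajb9 and the other 8 genes is thus the same whatever scaling is used.

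**Figure D2:**
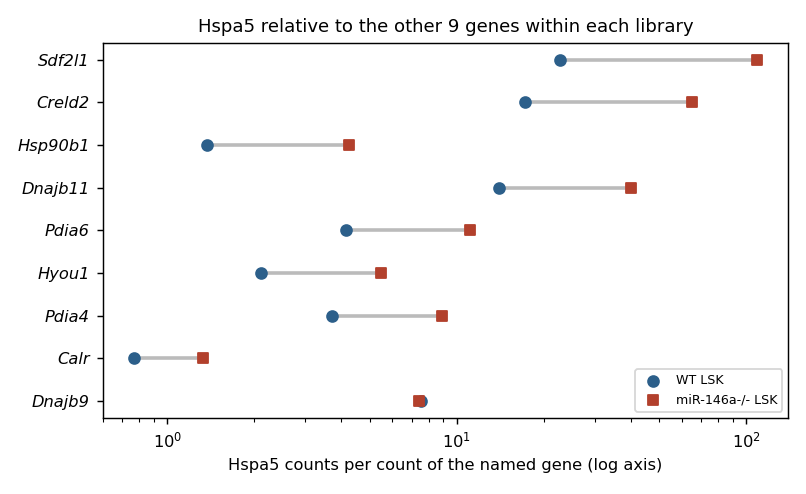
Hspa5 counts per count of each of the other 9 genes (log axis), in the WT LSK and miR-146a-/- LSK libraries. The ratio is higher in miR-146a-/- for 8 genes, from 1.74-fold for Calr to 4.80-fold for Sdf2l1, and nearly level for Dnajb9 (7.51 and 7.40).

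Levels of different genes were compared as normalised CPM per kilobase of annotated exon. The order depends on that length, which exceeds the longest transcript for some genes. The lengths are 7230 and 4925 bases for Hyou1 and 3745 and 2175 for Pdia6, while both are 2399 for Pdia4. The intervals below do not cover this choice. Calr was the highest in both libraries (189 and 184), followed by Hspa5 (98.6 and 167) and Hsp90b1 (75.1 and 41.2). Pdia4 was at 46.8 and 33.1. In WT the next pair, Hyou1 (27.3, exact Poisson interval 26.8 to 27.9) and Pdia6 (26.9, 26.2 to 27.7), could not be ordered, and neither could Creld2 (17.7) and Sdf2l1 (16.5), whose intervals overlapped. Dnajb9, between those pairs in WT at 21.8, was at 37.4 in miR-146a-/-, above Pdia4. The lowest in WT was Dnajb11 at 9.19, and in miR-146a-/- its 5.44 (4.83 to 6.09) overlapped the 5.83 (4.78 to 7.04) of Sdf2l1.

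The promoter matches did not separate higher from lower genes. Hspa5, with an ERSE 65 to 47 bases before the gene start, was higher under TMM scaling (level by total counts), while Hsp90b1, with a pair of ERSEs, and Creld2 were lower and Calr was near level. Dnajb9 and Sdf2l1, at opposite ends, both lacked a full match here. The XBP1 core TGACGTGG was in no promoter of the 9 genes and in 0.676% of all promoters. No match says only that those letters are not in this window.

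**Figure D3:**
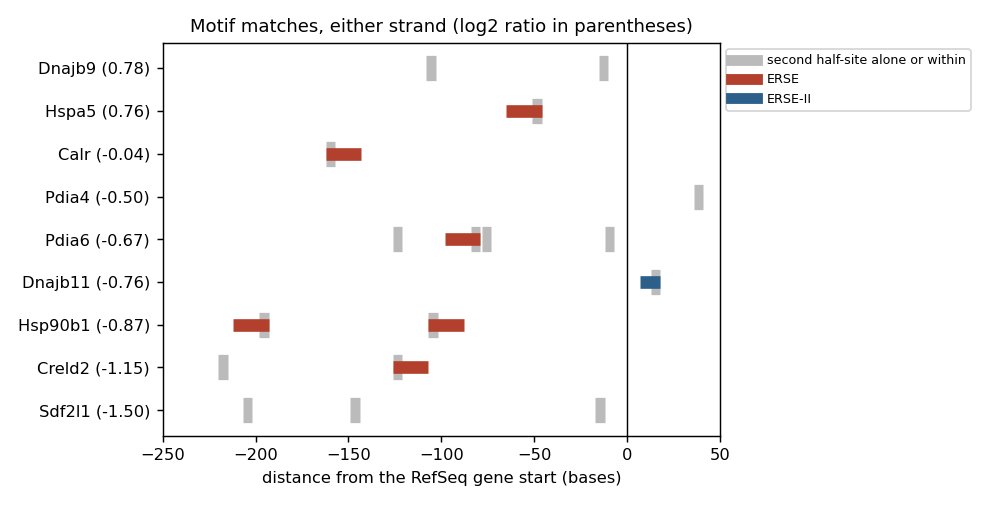
Positions of ERSE (red), ERSE-II (blue) and half-site (grey) matches on either strand, in bases from the RefSeq gene start, for the 9 genes with a promoter sequence, ordered by TMM-scaled log2 ratio. Genes with an ERSE run from -1.15 (Creld2) to 0.76 (Hspa5, -0.06 by total counts).

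Some of these genes start close to a gene on the other strand. The ERSE of Creld2, at chromosome 15, 88819520 to 88819538, also lies in the promoter window of Alg12, a mannosyltransferase gene of N-glycan assembly that starts 328 bases away. Alg12 had 662 and 253 counts and a log2 ratio of 0.09 (-0.12 to 0.30), whereas Creld2 was at -1.15, and their intervals did not overlap. Tbccd1, which starts 176 bases from Dnajb11, was at -0.24 (-0.49 to -0.00), above the -0.76 of Dnajb11. Ttc41, 302 bases from Hsp90b1, had only 91 and 58 counts and was at 0.82 (0.33 to 1.32). The ERSE of Calr also lies in the promoter window of a gene on the other strand, 1700122E12Rik. Besides the 10 genes, 43 genes held an ERSE or ERSE-II, of which 20 were measured. Of these, 0 were called higher and 0 lower, where 5.35% and 1.53% of all measured genes were. Their ratios were negative for 11, with a median of -0.13, beside -0.01 over all measured genes. These neighbours and the genes with a match were looked at after the ratios were known.

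The microRNA itself was checked against the 10 transcripts. Its mature sequence, from RefSeq, is shown with the seed (bases 2 to 8) in capitals, since many direct targets carry the complement of those letters.

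mmu-miR-146a-5p, chr11:43374435-43374456, minus strand: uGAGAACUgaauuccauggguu

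The complement AGTTCTC occurred in 0 of the 10 genes, read in the longest 3' untranslated region of each, against 1538 (12.6%) of 12249 measured protein-coding genes. No gene of the 10 had the 6-base match to the seed's first 6 bases either. The share of all genes with that match is not given here. Direct targeting was not tested, and only these regions were read. The same regions were also compared for ATTTA, the core of AU-rich decay elements, a feature chosen after the ratios were seen. Hspa5 had 10 copies in 1434 bases, and 6.996% of genes had as many. Dnajb9 had 4 in 1395 bases (30.0% of genes had as many), and the other 8 genes had 0 to 2, where the median gene has 2. Per kilobase the order differed: Hspa5 had 6.97 copies and Dnajb9 2.87. Pdia4 (5.76) and Hsp90b1 (3.82), both with negative ratios, lay above Dnajb9, and Calr (2.51) lay close to it. Hspa5 and Dnajb9 also had the longest of the 10 regions, with Hyou1 (1319 bases) and Dnajb11 (1260) close behind.

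Ratios of all genes named from here on are TMM-scaled; total counts shift the median of measured genes by -0.83. Of the genes called higher in the pathway lists below, Ppp1r15a was still called by total counts (0.77), while Ern1 (0.01), Ddit3 (0.40), Atf4 (0.15), Ddit4 (0.08), Dnajb4 (0.30), Hspa2 (0.20) and Dnajb1 (0.13) were not. Smaller positive ratios turn negative by total counts, among them those of Syvn1, Herpud1, Sec24a, Sec24b, Dad1, Ost4, Fkbp7, Atf6 and Xbp1. List counts below are read against the 5.35% of all measured genes called higher and the 1.53% called lower. Of 16 measured sensors and factors of the unfolded protein response, 1 was called higher and 0 lower, with a median of -0.01. Ern1, which encodes IRE1, was higher at 0.83 (0.77 to 0.89; 5798 and 3705 counts). Creb3l3 was at 0.86 on 15 and 10 counts only. At the lower end were Atf6b (-0.58, -0.70 to -0.46), the weaker paralog of ATF6, and Bhlha15 (-0.47). Named after their values were seen, Atf6 was at 0.19 (0.08 to 0.29), Xbp1 at 0.10 (0.00 to 0.20) and Eif2ak3 at -0.13 (-0.31 to 0.05). Gene counts do not show the spliced form of Xbp1.

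In the ATF4 and CHOP arm 4 of 22 genes were called higher and 1 lower, with a median of -0.02, where 5.35% of all measured genes were called higher and 1.53% lower. By total counts 1 was called higher and 9 lower, where 1.01% of all measured genes were called higher and 51.0% lower. Ppp1r15a, whose product GADD34 reverses the translational block, had 8097 and 8756 counts and a log2 ratio of 1.59 (1.55 to 1.64). Ddit3 was at 1.22 (1.06 to 1.38), Atf4 at 0.97 (0.92 to 1.02) and the mTOR inhibitor gene Ddit4 at 0.90 (0.71 to 1.09). The mitochondrial folate enzyme gene Mthfd2 was lower at -0.93 (-1.29 to -0.60), and Phgdh of serine synthesis was at -0.66.

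Among 43 other ER folding factors, 0 were called higher and 1 lower, with a median of -0.24 and 32 negative ratios. Mogs, the glucosidase that starts glycan trimming, was at -0.78 (-0.88 to -0.67), and the thioredoxin-domain protein gene Txndc5 at -0.61. The highest were the low-count genes Fkbp7 (0.48) and Uggt2 (0.34). Calnexin (Canx), the membrane partner of calreticulin, was at -0.52 (-0.57 to -0.48) and holds an ERSE or ERSE-II; it is named after its value was seen.

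Genes of ER-associated degradation, which exports misfolded proteins to the proteasome, had 0 of 27 called and a median of -0.11. Its highest members, the ubiquitin ligase gene Syvn1 (0.63, 0.53 to 0.72) and Herpud1 (0.62, 0.52 to 0.72), stopped short of the call. Its lowest were Derl3 (-0.74 on 47 and 10 counts) and Ube2g2 (-0.63). Both Syvn1 and Herpud1 carry an ERSE or ERSE-II, as do Canx (-0.52), Derl3 (-0.74), Dnajc3 (-0.21) and, of the glycosylation list, Krtcap2 (-0.63). Dnajc3 and Krtcap2 are named after their values were seen.

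Protein translocation and N-glycosylation genes had 2 of 33 called lower and 0 higher, with a median of -0.24. The called genes were Rpn1 (-0.74, -0.83 to -0.65), a subunit of the oligosaccharyltransferase, and Spcs3 (-0.69, -0.80 to -0.59), of the signal peptidase. Ostc was at -0.70, while the oligosaccharyltransferase subunits Dad1 and Ost4 were each at 0.40. ER to Golgi transport genes had 0 of 27 called and a median of -0.20, from Sec13 (-0.49) and Tmed2 (-0.45) to Sec24b (0.21) and Sec24a (0.62).

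Of 27 cytosolic and nuclear chaperones, 3 were called higher and 4 lower, with a median of -0.19, again beside 5.35% and 1.53% of all measured genes. By total counts 0 were called higher and 18 lower, where 1.01% of all measured genes were called higher and 51.0% lower. Higher were Dnajb4 (1.12), the HSP70 gene Hspa2 (1.02) and the J-domain gene Dnajb1 (0.96). Lower were the exchange factor Hsph1 (-1.84, -1.99 to -1.69) and the HSP90 co-chaperones Fkbp4 (-1.0), Ahsa1 (-0.80) and Stip1 (-0.75). Hspb1 was at -1.38 on 23 and 3 counts. Among 12 mitochondrial chaperones 1 was called lower, Hspd1 (-0.71, -0.78 to -0.64), with Hspe1 also at -0.71, Hscb at 0.12, Dnajc19 at 0.05 and a median of -0.33. Whether any list differs from another was not tested.

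**Figure D4:**
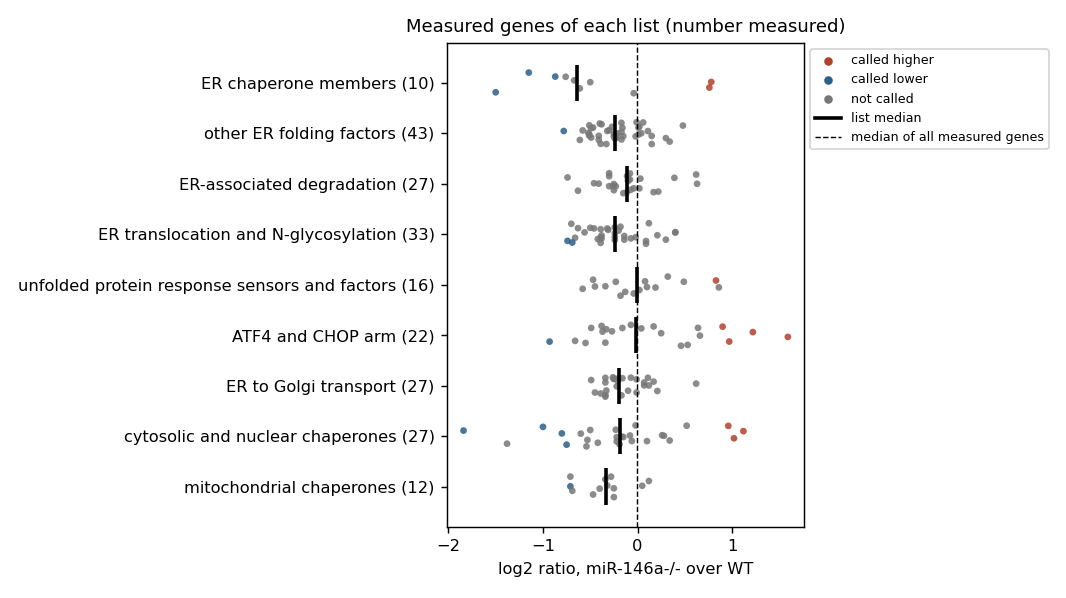
TMM-scaled log2 ratio of miR-146a-/- over WT for each measured gene of the 10 ER chaperones and 8 other lists, with called genes coloured, list medians as thick bars and the median of all measured genes dashed. The ER chaperones have the lowest median (-0.64) of the lists drawn; by total counts every median drawn shifts down, to -1.46 for the ER chaperones.

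Depth was 35069136 (WT) and 22231389 (miR-146a-/-) counts, of which protein-coding genes held 81.4% and 51.5%. Most of that gap lay in Gm42418, a feature with ribosomal RNA sequence, at 2.13% and 27.2% of counts. Mir146 had 0 counts in both libraries, so it gives no check of the genotype labels. The log2 ratio of Xist was 3.64 and those of 4 Y-linked genes were from -2.75 to -2.33, so the pools differ in sex make-up. These go with genotype, and their part in the chaperone ratios was not tested. Median ratios rose with transcript length, from -0.24 in the shortest to 0.20 in the longest decile of the 10365 protein-coding genes. The short transcripts of Sdf2l1 (1108 bases) and Creld2 (1366 bases) were still called lower when length and GC were adjusted for, at -1.36 and -1.02.

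Cell type markers were read because secretory cells are rich in ER chaperones. LSK and stem cell markers were all measured, 12 of 12, with a median log2 ratio of 0.39 by TMM and -0.43 by total counts. By TMM 9 intervals lay above 0 and 3 below, those of Cd34 (-0.19), Flt3 (-0.23) and Procr (-0.39). Gata2 was called higher at 0.97 (0.15 by total counts, not called). Per kilobase Hlf (0.38) was among the most abundant, though Flt3 and Cd34 were above it in WT; Cd34, Flt3, Procr and Gata2 are named after their values were seen. Plasma cell markers summed to 449 (WT) and 366 (miR-146a-/-) normalised CPM; of 15 genes 9 were measured and Ighg1 and Ighg2c were at 0. Ighm (-0.27) and Igkc (-1.11) were the most abundant, and Jchain fell from 271 to 38 counts (-1.35), while Igha went from 1 to 116. By TMM 4 of the 9 ratios were positive and 5 negative, with a median of -0.03. Besides Igha the positive ones were Sdc1 (0.26, 1414 and 607 counts), Irf4 (0.95) and Prdm1 (0.43), named after their values were seen. Tnfrsf17 and Mzb1, which define plasma cells, had 5 and 0 and 11 and 5 counts. Neutrophil and granule markers summed to 349 and 528 normalised CPM, with Mpo at 0.66 (-0.16 by total counts) and Prtn3 at 0.54 the most abundant. Of 12 measured, 6 were positive and 6 negative, with a median of -0.07. By TMM 2 were called higher, Mpo and Elane (2.04), and 3 lower, Ltf (-2.80), Ngp (-1.38) and S100a9 (-1.24). By total counts 1 was called higher and 5 lower, where 1.01% of all measured genes were called higher and 51.0% lower. Elane, Ltf, Ngp and S100a9 are named after their values were seen. The part of these cells in the chaperone ratios was not tested.

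The remaining marker lists were at low summed levels. Monocyte and macrophage markers were at 89.4 and 92.5 normalised CPM, with Lyz2 (-0.29) and Cd68 (0.63) the most abundant. Stromal and endothelial markers were at 77.3 and 91.0, with Pdgfrb and Emcn leading and Lepr at 0. T and NK cell markers were at 37.9 and 41.4, of which Nkg7 (-0.12) was 34.4 and 31.7. Ccl5 was next per kilobase, at 31 and 62 counts, with Cd3d, Cd3e, Cd3g and Cd8a at 0. B cell markers, mostly Cd79b with Cd79a next, were at 17.19 and 17.05, with Igll1 at 0. Mast cell and basophil markers, led by Cpa3 and Mcpt8, were at 3.95 and 6.70. Erythroid markers were at 2.73 and 3.17, led by Hbb-bt and Hbb-bs, with Alas2 and Slc4a1 among those at 0.

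**Figure D5:**
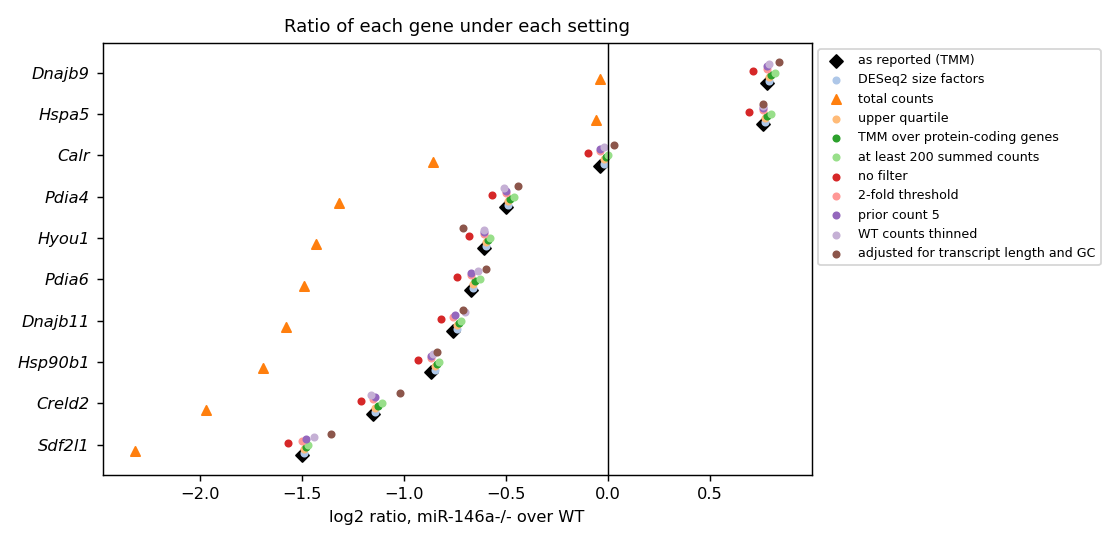
Log2 ratio of each of the 10 genes as reported (black diamonds) and under each alternative setting (coloured points, offset vertically). All settings lie close together except total counts (orange triangles), which moves every gene down, Hspa5 to -0.06 and Dnajb9 to -0.04, and keeps their distance from the other genes.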

How the data were processed

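The authors deposited whole-number read counts per Ensembl gene for both libraries, without normalisation; all values here derive from them. Per the file headers, alignments placed junctions on the genome and duplicates were marked. STAR 2.5.3a, Salmon 0.9.0 and build mm10 appear in the submitters' processing notes without a role. For the counting program, its use of strand and whether marked duplicates were counted, nothing is given in the sources used here. Symbols, positions and exon lengths came from GENCODE M21 (37693 of 39017 identifiers matched; the rest held 0.286% of WT and 0.168% of miR-146a-/- counts).

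Library sizes were scaled by TMM (edgeR 4.0.16, R 4.3.3) over 13880 genes with at least 20 summed counts ("measured"). With 1 library per genotype edgeR's quasi-likelihood test could not be run, so no p-value is given. Log2 ratios used a prior count of 0.5 and exact Clopper-Pearson 95% intervals (scipy 1.17.1), tested on simulated data. Without molecular identifiers, reads are not independent molecules, so the true error may be larger than these intervals. Members and lists were chosen with earlier results of these data known. Named are the 10 members, up to 2 highest and 2 lowest genes of each list, called genes where few, and for markers the 2 most abundant and those at 0. Some marker genes that this rule would name are not reported here. The 10 alternatives, among them DESeq2 1.42.0 size factors, are under sensitivity.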

Additional observations from a re-analysis of the deposited data

How the results depend on the processing

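No paired analysis was possible because each genotype has 1 library, and leaving out a library would leave no comparison. The 10 ratios kept their sign under every alternative run except total counts for Hspa5 (-0.06) and Dnajb9 (-0.04), and, for Calr alone, the length and GC adjustment (0.03) and at least 200 summed counts, where it was at 0 to 2 decimals. By total counts 8 of the 10 genes were called lower and 0 higher, beside 7077 (51.0%) of all measured genes lower and 140 (1.01%) higher. The number of the 10 called lower was 6 with no filter, 4 after the length and GC adjustment, which added Hyou1, and 1 at 2-fold, where 0 were called higher; the 2-fold rule is stricter by construction. Over all 13880 measured genes, 212 were lower and 742 higher as reported, and 42 and 294 at 2-fold. After the length and GC adjustment 159 were lower and 487 higher. The filter settings count other sets of genes. Among genes with at least 200 summed counts 130 were lower and 491 higher, and with no filter 322 of 20304 genes (1.59%) were lower. The changed set of genes enters the filter counts by construction. What else moves these numbers was not tested.

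By total counts the median of the 10 genes was -1.46, and those of the lists were -1.06 (other ER folding factors), -0.93 (ER-associated degradation), -1.07 (translocation and N-glycosylation), -0.82 (sensors and factors), -0.84 (ATF4 and CHOP arm), -1.02 (ER to Golgi transport), -1.01 (cytosolic and nuclear chaperones) and -1.15 (mitochondrial chaperones), where the median of all measured genes was -0.83. Depth limits genes with few counts, such as Derl3, Creb3l3 and Hspb1, whose intervals span 0.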
